A study of Rattus norvegicus with 3 samples.

Results

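The genes described here are 8 genes of the contractile machinery and its regulators in mural cells: Acta2 (ENSRNOG00000058039), Tagln (ENSRNOG00000017628), Myh11 (ENSRNOG00000057880), Cnn1 (ENSRNOG00000027736), Myl9 (ENSRNOG00000020246), Tpm2 (ENSRNOG00000016731), Des (ENSRNOG00000019810) and Rgs5 (ENSRNOG00000002730). They were chosen by name, and all 8 are among the 21908 genes found in the kept cells. Single-cell RNA sequencing with the 10x Genomics Chromium 3′ kit was done on the dissected cochlear basal membrane of untreated Sprague-Dawley rats 1 day (P1), 7 days (P7) and 14 days (P14) after birth, with 1 library per stage. The labels call the cell type greater epithelial ridge cell, while the markers show many cell types, so all kept cells were used, and single animals are not told apart. Per the study's methods, the spiral ganglia, the spiral ligaments and the stria vascularis were taken off before dissociation. Of 34927 barcodes, 30641 were kept (12779 at P1, 12581 at P7 and 5281 at P14), those with more than 500 and fewer than 5000 genes and under 25% of unique molecular identifiers (UMIs) on mitochondrial genes. With 1 library per stage no difference was tested, and stage cannot be told apart from library. Intervals are exact at the 95% level and cover counting error only.

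Mural cells wrap the blood vessels. Vascular smooth muscle cells surround arteries and arterioles and contract through smooth muscle actin and myosin, while pericytes sit along capillaries and carry less of this machinery. In the cochlea pericytes are known above all from the stria vascularis and the spiral ligament, both of which the dissection set out to remove, and which vessels the mural-like cells came from was not tested. Acta2 codes for smooth muscle actin, Myh11 for the smooth muscle myosin heavy chain and Myl9 for a regulatory myosin light chain. Tagln and Cnn1 code for the actin-binding proteins transgelin and calponin, Tpm2 for a tropomyosin and Des for the intermediate filament protein desmin. Rgs5 codes for a regulator of G protein signalling that is widely used to mark pericytes and other mural cells.

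Promoter sequence is shown for Acta2 and Rgs5, the genes by which the cells are separated below. The RefSeq promoter table of the GRCr8 assembly held 5 of the 8 genes (Acta2, Cnn1, Tpm2, Des and Rgs5). The 250 bases before the annotated start were searched for the CArG box, the sequence bound by serum response factor, on both strands. The box reads the same on either strand. Capitals mark the stretches that match it with at most 1 deviating base. The Acta2 sequence lies at chr1:241172504-241172753 on the minus strand, and the Rgs5 sequence at chr13:84380827-84381076 on the plus strand.
Acta2: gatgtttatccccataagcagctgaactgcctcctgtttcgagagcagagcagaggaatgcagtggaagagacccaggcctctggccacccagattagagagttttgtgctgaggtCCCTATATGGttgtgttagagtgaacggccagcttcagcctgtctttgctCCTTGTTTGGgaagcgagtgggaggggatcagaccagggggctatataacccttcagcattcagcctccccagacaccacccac
Rgs5: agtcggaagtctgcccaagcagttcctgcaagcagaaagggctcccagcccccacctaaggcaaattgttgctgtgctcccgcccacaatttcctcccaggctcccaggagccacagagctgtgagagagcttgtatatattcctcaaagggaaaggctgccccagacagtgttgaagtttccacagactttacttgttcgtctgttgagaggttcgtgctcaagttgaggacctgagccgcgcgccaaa
Acta2 held 2 such boxes, which start 134 and 84 bases before the annotated start, and neither was free of a deviation. None was found in these windows of Cnn1, Tpm2, Des or Rgs5. Of 27457 rat promoters of the same length, 18.6% held a box with at most 1 deviation and 1.5% held one without a deviation. Serum response factor itself (Srf) was at 22.5 CPM (counts per 1000000 UMIs of the group) in mural-like cells and 12.1 CPM in all other cells. Its smooth muscle partner myocardin (Myocd) gave 5 UMIs in all mural-like cells together.

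The mural-like cells were 1 of 30 clusters. They were found with the 8 genes left out of the clustering and named from 14 other mural markers, by their mean log2 ratio to all other cells (4.05). All 14 had at least 1 UMI in the cluster at every stage, but so they had in endothelial-like cells at P14. Summed, the markers stood at 6630, 8341 and 11732 CPM in mural-like cells at P1, P7 and P14. In endothelial-like cells they stood at 279, 444 and 498 CPM. The naming rule was set after values had been seen. Genes that vary with the members did shape the clusters, so their levels by group are a description. There were 329 mural-like cells at P1 (2.57% of kept cells, 2.31 to 2.86), 286 at P7 (2.27%, 2.02 to 2.55) and 56 at P14 (1.06%, 0.802 to 1.37). Their median depth was 5233 UMIs at P1 and 5851 at P7, but 989 at P14. Skeletal muscle markers were at or near 0 in them, with 1, 3 and 0 of 8 found at P1, P7 and P14. The libraries shared few barcodes, 53 between P1 and P7, 16 between P1 and P14 and 19 between P7 and P14. The doublet caller Scrublet marked 12.2% of mural-like cells at P1 and 14.3% at P7, and it did not work at P14, where it marked 0.0379% of all cells.

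**Figure D1:**
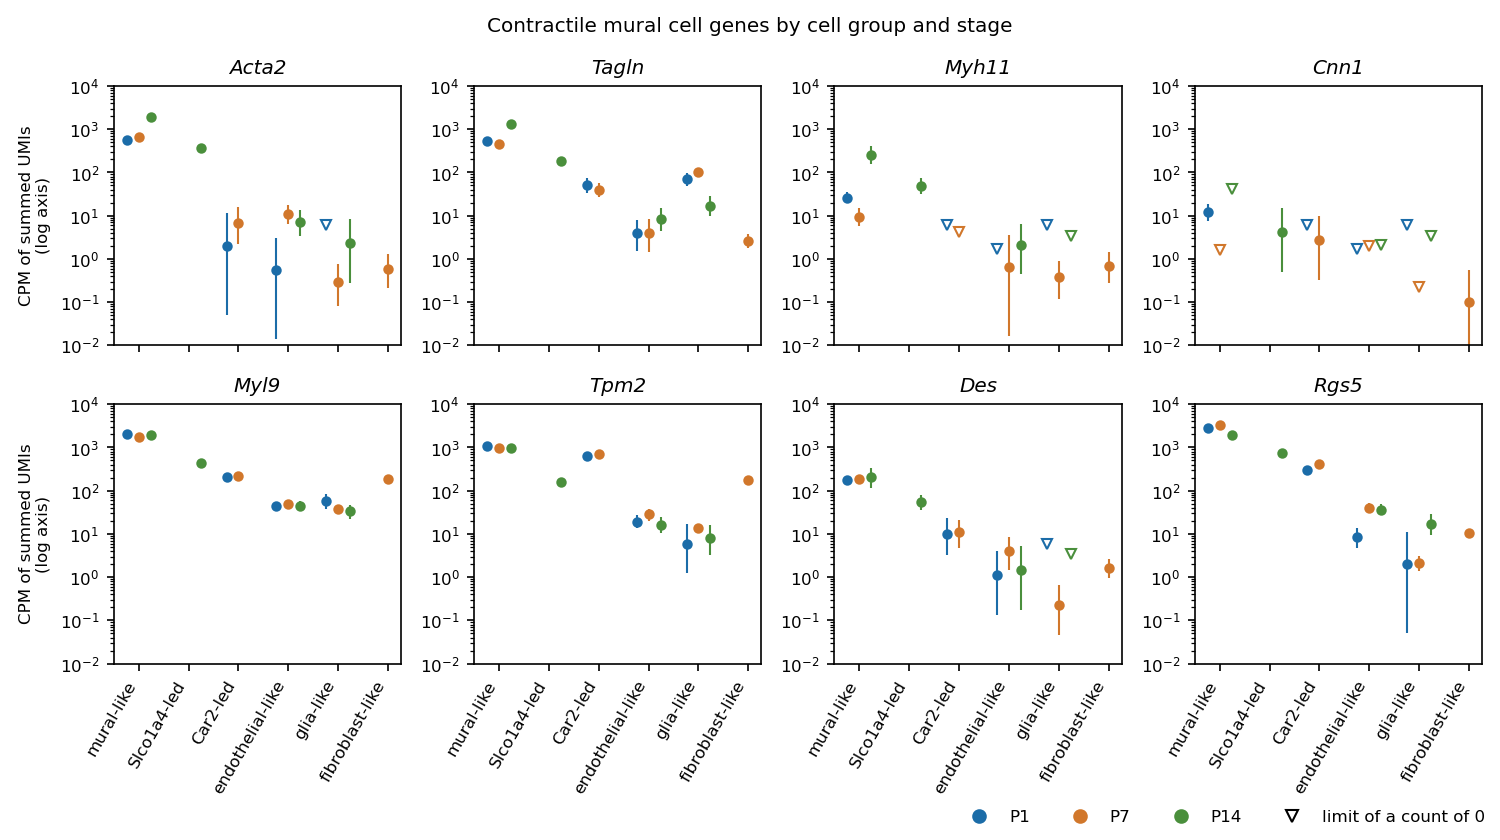
Level of the 8 genes in 6 cell groups at P1, P7 and P14, as CPM of summed UMIs on a log axis, for groups of 50 or more cells. Bars are exact 95% Poisson intervals, which are often smaller than the points, and open triangles give the limit that a count of 0 allows. The mural-like cells had the highest points for every gene except Cnn1 at P7 and P14.

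All the genes but Cnn1, which is taken up last, had their highest level in the mural-like cells at each stage, among 19 groups of 50 or more cells at P1, 20 at P7 and 10 at P14. Smooth muscle actin Acta2 stood at 576 CPM (543 to 611) at P1, 669 CPM (632 to 707) at P7 and 1914 CPM (1610 to 2259) at P14. The next group was far below at P1 and P7. It was the Nefh-led cluster with 33.4 CPM at P1, from only 2 cells, and the endothelial-like cells with 11.2 CPM at P7. At P14 the second group was a cluster led by Slco1a4, with 369 CPM. The mural-like cells held 92.9% of all Acta2 UMIs at P1, 88.9% at P7 and 34.7% at P14.

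Rgs5 stood at 2859 CPM (2784 to 2936) at P1, 3390 CPM (3307 to 3474) at P7 and 1983 CPM (1673 to 2333) at P14 in mural-like cells. The next groups had 294 CPM (P1) and 404 CPM (P7), both in a cluster led by Car2, and 747 CPM (P14) in the Slco1a4-led cluster. Rgs5 was found in most mural-like cells, 323 of 329 at P1, 286 of 286 at P7 and 45 of 56 at P14. In cells that should lack it the share was low. After every cell was thinned to 1000 UMIs, Rgs5 was found in 0 of 106 macrophage-like cells at P1 (upper bound 3.42%), in 1 of 87 at P7 (1.15%, upper bound 6.24%) and in 1 of 285 B cell-like cells at P14 (0.351%). Acta2 was found in 0 of 106, 0 of 87 and 1 of 285 of the same cells. The median depth before thinning was 7612 UMIs, 6506 UMIs and 3520 UMIs in these groups. In thinned mural-like cells Rgs5 was found in 86.3% at P1, 92.5% at P7 and 74.1% of 27 cells at P14, and Acta2 in 21%, 22.4% and 25.9%. Myl9 was found in 75.1%, 76.2% and 74.1%, Tpm2 in 58.1%, 56.9% and 55.6%, Tagln in 16.7%, 12.5% and 22.2%, and Des in 15.8%, 17.4% and 11.1%.

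Myosin light chain Myl9 differed by under 2-fold over the stages in mural-like cells, with 2062 CPM (1998 to 2127) at P1, 1749 CPM (1690 to 1810) at P7 and 1928 CPM (1623 to 2274) at P14. It was not limited to them. The mural-like cells held 30.3% of all Myl9 UMIs at P1 and 24.5% at P7, and the Car2-led cluster came next with 207 CPM (P1) and 224 CPM (P7). The myosin heavy chain Myh11 was sparse, with 26.3 CPM (19.5 to 34.7) at P1, 9.51 CPM (5.64 to 15) at P7 and 260 CPM (156 to 406) at P14, from 50, 18 and 19 UMIs.

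Tagln stood at 534 CPM (1013 UMIs) at P1, 445 CPM (843 UMIs) at P7 and 1354 CPM (99 UMIs) at P14 in mural-like cells. Much of the Tagln lay elsewhere, for the mural-like cells held 39.7% of its UMIs at P1, 24.6% at P7 and 33.3% at P14. The glia-like cells at P7 had 102 CPM (96.8 to 108), with a UMI in 705 of 2441 cells. The Nefh-led cluster had 142 CPM at P1 and 79.6 CPM at P7, and cochlear epithelium-like cells had 94.3 CPM at P1.

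Tpm2 stood at 1061 CPM (1015 to 1108), 980 CPM (936 to 1026) and 957 CPM (746 to 1209) in mural-like cells at P1, P7 and P14. It had the closest runner-up of the genes at P1 and P7, since the Car2-led cluster reached 620 CPM (553 to 694) and 690 CPM (631 to 753). Des stood at 175 CPM (157 to 195), 184 CPM (166 to 205) and 205 CPM (115 to 338). Its second group was a cluster led by Aldh1a2 with 27.1 CPM at P1 and 35.6 CPM at P7.

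Cnn1 was nearly absent from these libraries. It gave 26 UMIs in 6 cells at P1, 21 UMIs in 12 cells at P7 and 3 UMIs in 3 cells at P14. At P1, 23 of its UMIs lay in 3 mural-like cells (12.1 CPM, 7.68 to 18.2). No Cnn1 UMI was found in mural-like cells at P7 or P14, where a count of 0 allows up to 1.58 CPM (P7) and 41 CPM (P14).

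Against all other cells of the same library, 8 of 8 genes were more than 2-fold higher (log2 ratio over 1, with 10 CPM added to both sides) in mural-like cells at P1, where 5.91% of 8102 genes that passed a floor of 10 UMIs and 10 CPM were so. At P7 6 of the 6 genes that passed the floor were higher, against 5.27% of all genes, and Myh11 and Cnn1 did not pass. At P14 7 of 7 were higher, against 13.5% of all genes, and Cnn1 did not pass. The log2 ratios at P1 ran from 1.14 for Cnn1 to 7.28 for Rgs5, with 5.75 for Acta2 and 4.39 for Tagln. Cnn1 passed the floor only through the mural-like cells, where 14 of its 23 UMIs lay in 1 cell, and without that cell it was at 4.76 CPM, under the floor. Acta2, Myh11, Des and Rgs5 also passed at P1 only through the mural-like cells, with 0.874, 0.583, 6.66 and 8.5 CPM in all other cells. The same held for Acta2 and Des at P7 and for Myh11 and Des at P14. Counts of genes that passed in this way lean towards higher calls.

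Genes that are known to work with the 8 were counted in the same way, with the mural-like cells of the 3 stages together set against all other cells. Over all 8274 genes that passed the floor, 5.11% were higher and 6.08% lower in this comparison. Of 21 other contractile genes 16 passed the floor, and 11 were higher and 1 lower, with a median log2 ratio of 1.64 beside 0.01 over all genes. Among the higher ones were Mylk, the kinase that starts contraction (156 against 3.86 CPM), Cald1, which codes for caldesmon (1787 against 333 CPM), and Ppp1r14a, an inhibitor of myosin phosphatase (524 against 70.7 CPM). The lower one was Sncg, which codes for a synuclein (62.6 against 306 CPM), though at P14 alone it was higher (506 against 67.6 CPM). Of 21 pericyte genes 19 passed and 15 were higher, with a median of 3.69. Kcnj8, a potassium channel subunit, was at 880 against 2.12 CPM, and its partner Abcc9 at 695 against 11.6 CPM. Of 20 genes that signal between endothelium and mural cells 16 passed, and 8 were higher, such as Pdgfrb (958 against 65.2 CPM), the receptor that draws pericytes to vessels, and Notch3 (46.8 against 1.56 CPM). Tek and Ednrb were lower. The pericyte and signal lists hold markers by which the cluster was named, so their direction there is no separate finding.

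The genes whose level followed the mean of the 8 most closely over 49 groups of cell type and stage were Kcnj8 (Pearson's r of 0.94 on log2 CPM with 10 added), Ndufa4l2 (0.93), Higd1b (0.93), Cox4i2 (0.92) and Abcc9 (0.86). They were followed by Ajuba (0.85), Heyl (0.84), Gucy1a1 (0.84), Pcdh18 (0.84) and Cd248 (0.83), of 7750 genes compared. Ndufa4l2 (0.96) was most like Rgs5, and Higd1b (0.95) most like Acta2. Kcnj8, Ndufa4l2, Higd1b, Cox4i2, Abcc9 and Heyl are among the markers by which the mural-like cells were named. Their likeness to the members is thus no separate finding. The groups of a stage also share a library and its depth, so these values only describe.

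The genes differed in how evenly they were spread over the mural-like cells. The tenth of the cells with the most UMIs of a gene held 71.8% of the Acta2 UMIs at P1, 74.7% at P7 and 79.3% at P14. For Tagln it held 86.8%, 92.6% and 83.8%. Myh11 was found in fewer cells than this group holds at P1 and P7, so its value of 100% there carries no more than that. At P14 Myh11 was found in 7 cells, and this group holds 6. For Rgs5 it held only 23.1%, 22.5% and 31.7%, and for Myl9 27.2%, 31.8% and 36.2%. Des, with fewer UMIs than Tagln at each stage, reached 45.2% at P1, 39.3% at P7 and 60% at P14 (from 15 UMIs), and Tpm2 32.6%, 31% and 54.3%. The median cell had no UMI of Acta2 or Tagln at any stage, while the median cell had 2907 CPM of Rgs5 at P1 and 3487 CPM at P7.

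**Figure D2:**
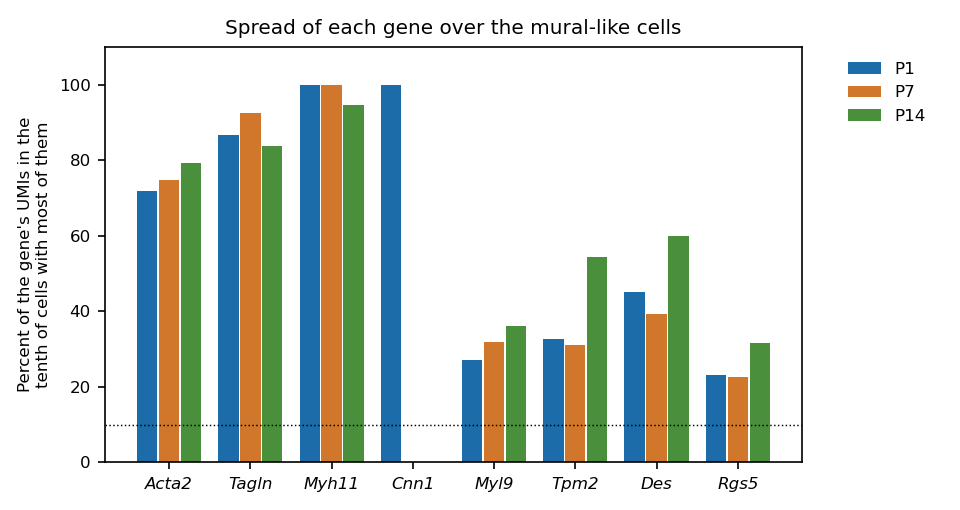
Percent of each gene's UMIs that lay in the tenth of mural-like cells with the most of them, by stage. The dotted line marks 10%, near the value if every cell held the same number of UMIs of the gene. Cells differ in depth and counts vary, so a gene of even level can lie above the line, most of all with few UMIs. Cnn1 has no bar at P7 and P14, where it gave no UMI. Acta2, Tagln and Myh11 sit at 71.8% or above, and Rgs5 at 31.7% or below.

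A single cell held 13.1% of the Acta2 and 22.7% of the Tagln UMIs of the mural-like cells at P1. Its 8826 UMIs held 143 of Acta2, 230 of Tagln, 125 of Tpm2 and 14 of Cnn1 but only 6 of Rgs5, and Scrublet did not mark it. It also held 183 UMIs of Actg2, the enteric smooth muscle actin, which is 82.1% of the Actg2 of all mural-like cells of that stage. Without this cell Acta2 at P1 was 503 CPM, Tagln 414 CPM, Cnn1 4.76 CPM and Actg2 21.2 CPM, down from 118 CPM. The cell was singled out after its values were seen. Acta2 and Actg2 code for near-identical proteins, and reads shared between them were not checked here.

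Separating the Rgs5 cells by Acta2 gave a minority with and a majority without it. After thinning to 1000 UMIs, 64 of 284 Rgs5 cells of the mural-like cluster had an Acta2 UMI at P1 (22.5%, 17.8 to 27.8), 62 of 260 at P7 (23.8%, 18.8 to 29.5) and 7 of 20 at P14 (35%, 15.4 to 59.2). The intervals of the 3 stages overlap. The reverse share was high, for 64 of 69 Acta2 cells had Rgs5 at P1 (92.8%), 62 of 63 at P7 (98.4%) and 7 of 7 at P14. The share with Acta2 rose with the UMIs used, to 33.9% at P1 and 35.6% at P7 at 3000 UMIs per cell, and to 37.5%, 37.1% and 33.3% at P1, P7 and P14 without thinning. With all UMIs, 202 of 323 Rgs5 cells at P1 and 180 of 286 at P7 still had no Acta2 UMI.

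**Figure D3:**
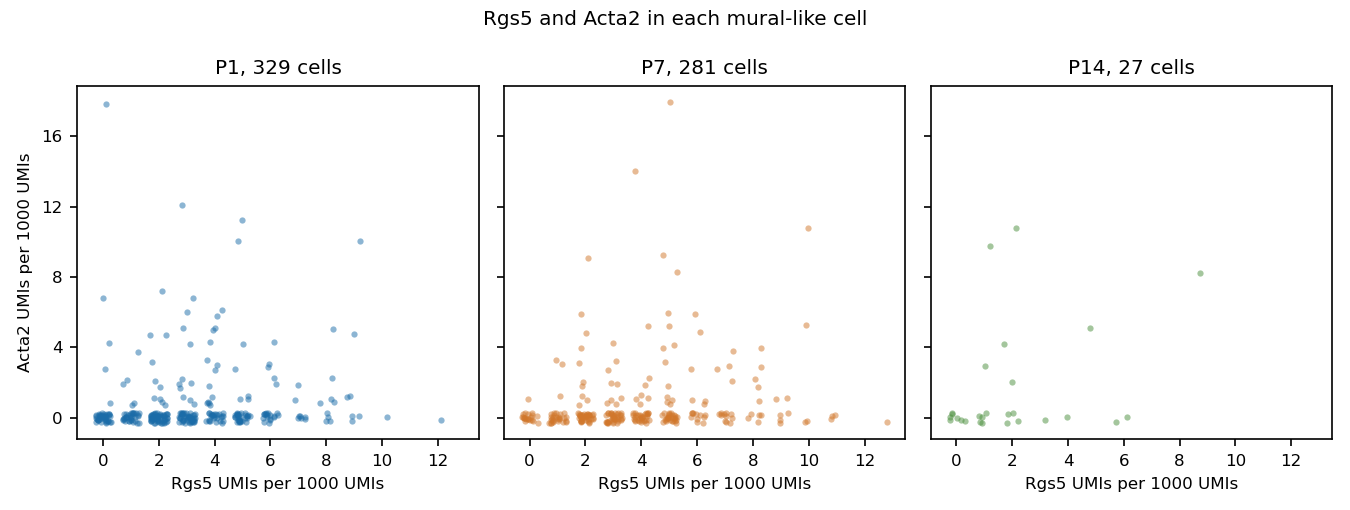
Acta2 against Rgs5 UMIs in each mural-like cell thinned to 1000 UMIs, with a small random shift so that points do not cover each other. Most cells lie along the bottom, with Rgs5 and no Acta2, at P1 (220 of 329 cells) and P7 (198 of 281), and cells with Acta2 lie at both low and high Rgs5 counts.

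**Figure D4:**
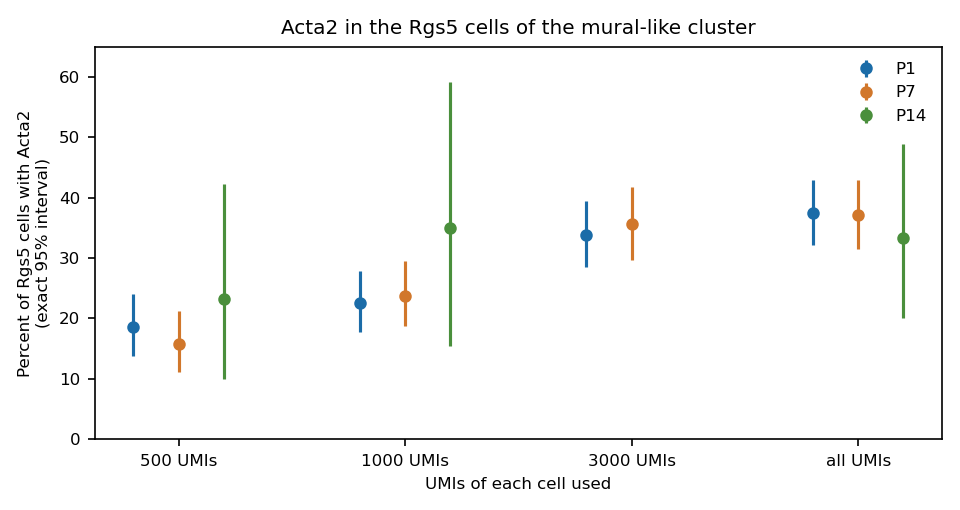
Percent of Rgs5 cells of the mural-like cluster with an Acta2 UMI, by the number of UMIs of each cell used, with exact 95% binomial intervals. P14 has too few cells at 3000 UMIs to be shown. P1 and P7 lie close together at each depth and both rise from 500 UMIs to 3000 UMIs.

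Where Acta2 was found it was often more than 1 UMI. Among the Rgs5 cells at P1, 23 had 1 Acta2 UMI of 1000, 25 had 2 to 4 and 16 had 5 or more, up to 12. At P7 the numbers were 22, 26 and 14, up to 18. Counting only cells with 2 or more UMIs of each gene, the share with Acta2 was 15.4% at P1, 16.5% at P7 and 38.5% at P14.

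Among the Rgs5 cells, most UMIs of Tagln and Myh11 lay in those with Acta2. Tagln was at 2053 CPM (1896 to 2219) with Acta2 and 71.8 CPM (57.8 to 88.2) without it at P1, a log2 ratio of 4.66, and at 1823 CPM (1696 to 1958) against 52.7 CPM (41 to 66.7) at P7, a log2 ratio of 4.87. Myh11 was at 123 against 3.16 CPM at P1 (38 and 4 UMIs) and at 40.8 CPM against no UMI at P7 (17 and 0 UMIs). Cells were placed by the thinned counts and their levels taken from all UMIs, so Acta2 itself, which the rule used, stood at 2478 and 105 CPM at P1 and at 2666 and 107 CPM at P7. No Cnn1 UMI fell in either class.

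Myl9, Tpm2 and Des were found in both classes, and their intervals with Acta2 lay above those without it. Myl9 was at 4570 CPM (4334 to 4815) against 1693 CPM (1622 to 1766) at P1 and 3252 CPM (3081 to 3430) against 1371 CPM (1308 to 1436) at P7. Tpm2 was at 1809 against 902 CPM at P1 (log2 ratio 1.00, just under the threshold) and 1698 against 802 CPM at P7 (log2 ratio 1.07). Des was at 266 CPM (212 to 331) against 156 CPM (135 to 180) at P1 and 288 CPM (239 to 345) against 157 CPM (137 to 180) at P7, under 2-fold at both stages. At P14, with 7 and 13 cells, Tagln had 78 UMIs with Acta2 and 4 without, and Myh11 15 and 0.

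Of the 5 genes outside the rule that passed the floor, 3 were more than 2-fold higher with Acta2 at P1 and 4 at P7, beside 1.77% of all genes at P1 and 1.14% at P7. None was lower, beside 3.17% of all genes at P1 and 1.48% at P7. Myh11 passed the floor only through the cells with Acta2, since those without it had 3.16 CPM at P1 and no UMI at P7. The 2 classes had like depth, with medians of 4380 and 5357 UMIs at P1 and 6010.5 and 5758 UMIs at P7. Scrublet marked 4.69% of the cells with Acta2 and 10% of those without at P1, and 4.84% and 15.2% at P7. The summed fibroblast markers stood at 552 CPM with Acta2 and 1463 CPM without at P1, and at 1319 CPM and 2444 CPM at P7. Dividing markers summed to 104 against 834 CPM at P1 and 699 against 704 CPM at P7. Endothelial markers summed to 386 against 200 CPM at P1 and 382 against 253 CPM at P7, and glial markers to 231 against 153 CPM and 322 against 713 CPM. Their part in the result was not tested.

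**Figure D5:**
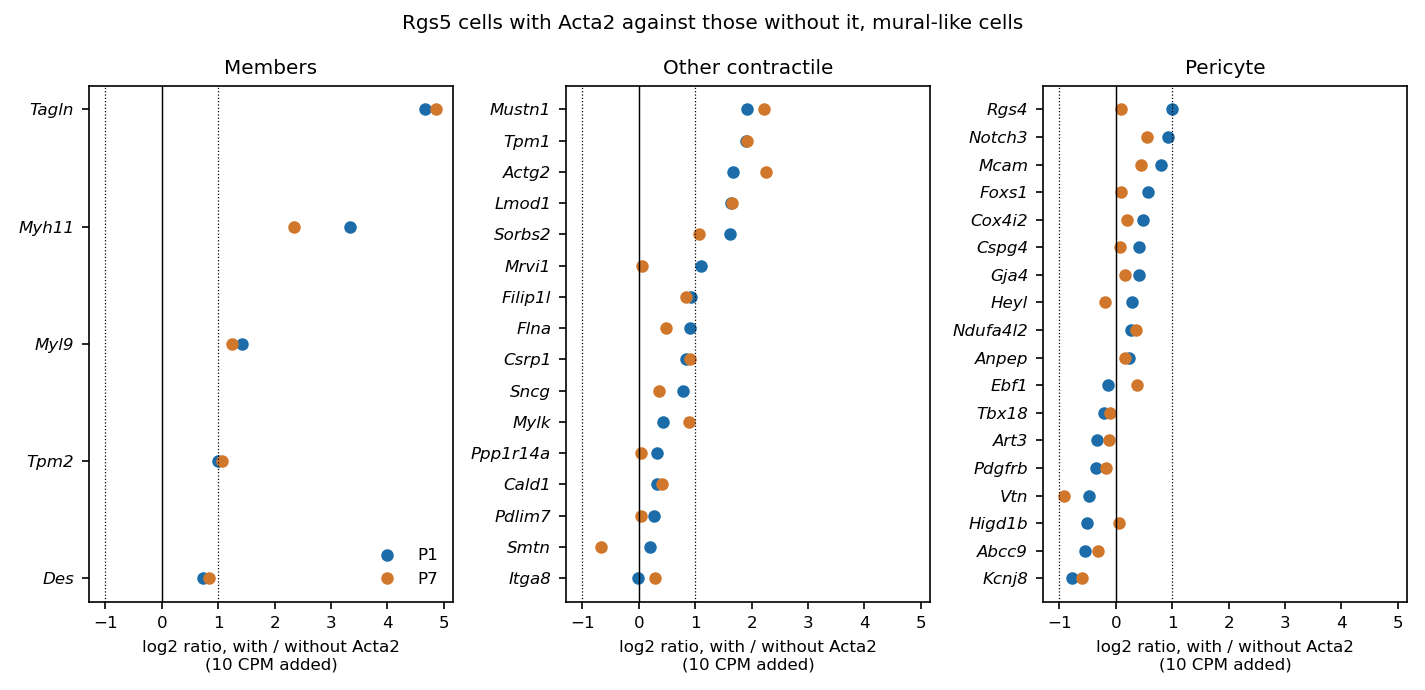
Log2 ratio of Rgs5 cells with Acta2 against Rgs5 cells without it in the mural-like cluster at P1 and P7, for the members the rule did not use and for 2 gene lists (10 CPM added, dotted lines at 2-fold). Tagln and Myh11 lie farthest right, and most pericyte genes lie within 2-fold at both stages.

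Other contractile genes were counted in the same classes. Of 16 that passed the floor 6 were higher at P1 and 5 at P7, with medians of 0.86 and 0.67 beside -0.01 and 0.01 over all genes. They were Tpm1, a further tropomyosin (1358 against 356 CPM at P1 and 966 against 248 CPM at P7), Mustn1, Actg2, Lmod1, which codes for an actin nucleator of smooth muscle, Sorbs2, and at P1 Mrvi1. Pericyte genes had medians of 0.25 at P1 and 0.08 at P7. Of 18 that passed at P1 only Rgs4 was higher (260 against 125 CPM), none of 19 was so at P7, and none was lower at either stage. Of the genes that signal between endothelium and mural cells Pdgfb alone passed 2-fold, with 19.5 against 4.73 CPM at P1 (6 UMIs in each class) and 45.6 against 16.8 CPM at P7.

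Among all genes with a UMI in 25% or more of either class, the 10 genes ranked highest with Acta2 at both stages were Tagln, Map3k7cl, Myh11, Mustn1, Tpm1, Pdlim5, Ltbp1, Arhgef7, Ccnd1 and Gmpr. Map3k7cl stood at 140 against 16.6 CPM at P1 and 171 against 11.5 CPM at P7. Ccnd1, which codes for cyclin D1, stood at 127 against 30.8 CPM and 166 against 56.5 CPM. Among the 10 ranked lowest were Postn, Igfbp5, Slco1c1, Serpinf1, Col3a1, Pltp, Igfbp2, Fn1 and Ccng1. Of these Pltp, Igfbp2 and Fn1 passed 2-fold at 1 of the stages, and Ccng1 at neither. Periostin (Postn) stood at 19.5 against 170 CPM at P1 and 74.5 against 225 CPM at P7. Postn, Col3a1 and Fn1 code for matrix proteins, and Igfbp5 and Igfbp2 bind insulin-like growth factors.

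The genes were found together in the same cells. At P1 43 of 69 mural-like cells with Acta2 had Tagln (62.3%), beside 12 of 260 without Acta2 (4.62%). At P7 28 of 63 had it (44.4%), beside 7 of 218 (3.21%). With all UMIs, 37 of the 41 mural-like cells with Myh11 had Acta2 and 35 had Tagln. The median mural-like cell had a UMI of 3 of the 8 genes at P1 and P7 and of 2 at P14 at 1000 UMIs, and 17, 6 and 4 cells had 6 or more. No cell had all 8 after thinning.

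Mural-like cells with Acta2 and no Rgs5 were rare, 5 at P1, 1 at P7 and none of 27 at P14 after thinning. The 5 cells at P1 held 17.4% of the Acta2 and 26.2% of the Tagln UMIs of the cluster, mostly through the single cell described above, and 16 of its 23 Cnn1 UMIs. With all UMIs 3 of them had Rgs5 after all.

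Mural-like cells with dividing markers had lower levels of Acta2 and Tagln than the rest. Cells with 2 or more UMIs of 7 dividing markers numbered 47 at P1, 43 at P7 and 0 of 56 at P14. Acta2 was at 253 CPM (206 to 307) in them and 663 CPM (622 to 705) in the rest at P1, and at 282 CPM (234 to 339) and 777 CPM (733 to 823) at P7. Tagln was at 185 against 627 CPM at P1 and 24.1 against 563 CPM at P7. With all UMIs Acta2 was found in 17 of 47 against 106 of 282 cells at P1 and 18 of 43 against 88 of 243 at P7. Tagln was found in 9 against 84 of these cells at P1 and 7 against 57 at P7. The rest at P1 includes the single cell with 143 UMIs of Acta2 and 230 of Tagln. Rgs5 was at 1963 against 3098 CPM and 2895 against 3528 CPM. Tpm2 was closer, with 918 against 1099 CPM and 910 against 1000 CPM. The dividing cells were deeper, with medians of 8352 against 5004.5 UMIs at P1 and 8720 against 5699 UMIs at P7. This division was chosen after values were seen.

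Between P1 and P7 the mural-like levels of the genes differed little. Of the 8, which all passed the floor, none was higher and Cnn1 alone was lower by over 2-fold, beside 2.32% of genes higher and 1.89% lower. Cnn1 and Myh11, with no UMI and 9.51 CPM at P7, passed only through P1, so neither could have been called higher. Without the cell that held 14 of its UMIs, Cnn1 was at 4.76 CPM at P1, under the floor. The log2 ratio of P7 against P1 was 0.21 for Acta2, 0.24 for Rgs5, -0.26 for Tagln, -0.24 for Myl9, -0.11 for Tpm2, 0.07 for Des and -0.90 for Myh11. The Cnn1 value (-1.15) rests on the 3 cells named above, and it was -0.86 with a mitochondrial limit of 10%, where Myh11 was -1.15. Of 9 early response genes, 6 were lower at P7, such as Fos (365 against 1322 CPM) and Jun (480 against 1407 CPM), which are known to respond to tissue dissociation. Their part in the result was not tested.

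At P14 Acta2, Tagln and Myh11 were higher in mural-like cells than at P7, with log2 ratios of 1.50, 1.58 and 3.79, while Myl9 (0.14), Tpm2 (-0.03), Des (0.15) and Rgs5 (-0.77) were within 2-fold. Those are 3 of the 7 genes that passed the floor, beside 19.2% of all genes higher and 18.0% lower in this comparison, so that many genes passed 2-fold in both directions at this depth and a single call carries little weight. Myh11, at 9.51 CPM at P7, passed the floor only through P14. This comparison shares its P7 cells with the one before. The P14 values rest on 56 cells, 16 with Acta2, 12 with Tagln and 7 with Myh11. Without the cell with the most Acta2 the levels at P14 were 1605 CPM for Acta2, 1095 CPM for Tagln and 175 CPM for Myh11. With a mitochondrial limit of 10% the log2 ratio of Acta2 fell to 0.88 and Myh11 at P14 to 85.2 CPM. The median log2 ratio of the 1403 genes with 10 or more UMIs at both stages was 0.39, and centred on it the ratios were 1.11 for Acta2, 1.19 for Tagln and -1.16 for Rgs5. Of the 16 other contractile genes that passed, 10 were higher at P14, with a median of 1.23 beside 0.17 over all genes, such as Mylk (479 against 122 CPM). Markers of other types moved too, with summed glial markers at 2995 CPM at P14 and 824 CPM at P7 and fibroblast markers at 5702 and 2306 CPM. Osteoblast markers summed to 711 CPM at P14 and 28.5 CPM at P7, and dividing markers to 13.7 and 682 CPM. Their part in the result was not tested.

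The P14 levels of the members depended on which cells were counted. A cluster of 169 P14 cells led by Slco1a4, a transporter of barrier endothelium, had both endothelial (4026 CPM summed) and mural markers (3466 CPM summed). Its median depth was 2480 UMIs, beside 989 in mural-like and 1116 in endothelial-like cells at P14. Scrublet did not work at that stage, and whether these barcodes hold more than 1 cell was not tested. After thinning, 56.1% of 164 of its cells had 2 or more UMIs of both lists, beside 0 of 27 mural-like and 7.84% of 561 endothelial-like cells at P14. It held 54.7% of the Rgs5, 44.6% of the Acta2 and 30% of the Tagln UMIs of that library. In it 14 of 59 Rgs5 cells had Acta2 (23.7%, 13.6 to 36.6). When it was counted with the mural-like cells, the P14 levels were 571 CPM for Acta2, 335 CPM for Tagln, 76.7 CPM for Myh11 and 908 CPM for Rgs5. The log2 ratios against P7 then became -0.25 for Acta2 and -0.49 for Tagln, and Myh11 stayed at 2.12. Rgs5 fell further below its P7 level of 3390 CPM. The endothelial UMIs of the cluster count in these levels, so the ratios do not give the direction in mural cells alone.

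Rgs5 cells without Acta2 were found outside the mural-like cluster as well. Of 319 such cells at P1 (thinned), 69% were mural-like, 4.7% were in the Car2-led cluster and 25.7% were in other clusters, and all of these last 82 had a single Rgs5 UMI. Of 294 at P7, 67.3% were mural-like, 8.84% in the Car2-led cluster and 20.4% in other clusters, where 56 of 60 had a single UMI. By contrast 64 of 66 Rgs5 cells with Acta2 at P1 and 62 of 65 at P7 were mural-like. At P14 7 of 24 were mural-like and 14 in the Slco1a4-led cluster.

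The Car2-led cluster had Rgs5 and Tpm2 but hardly any Acta2. It held 66 cells at P1, 94 at P7 and none at P14, and its leading genes were Car2, Apoc4, Actg2, Meox1 and Slc29a1. Rgs5 was found in 46 of 66 cells at P1 and 74 of 94 at P7 with all UMIs, and Acta2 in 1 and 4 cells. Against the P1 and P7 mural-like cells, Rgs5 (360 against 3124 CPM), Acta2 (4.9 against 622 CPM), Tagln (44.1 against 490 CPM), Myl9 (217 against 1906 CPM) and Des (10.6 against 180 CPM) were lower, and so was Myh11, which gave no UMI. These are 6 of the 7 genes that passed, beside 7.40% of all genes lower and 3.48% higher, while Tpm2 was within 2-fold (662 against 1021 CPM). Acta2 and Myh11 passed the floor only through the mural-like cells, so neither could have been called higher. Actg2, by which the cluster is led, was at 229 against 71 CPM. In mural-like cells at P1, 82.1% of the Actg2 UMIs lay in the single cell described above, without which the P1 level was 21.2 CPM. Of the 16 other contractile genes that passed, 10 were lower. So were 16 of 18 pericyte genes, such as Kcnj8 (22.9 against 884 CPM) and Vtn (0.816 against 768 CPM). The pericyte list holds the markers that named the mural-like cells, Kcnj8 and Vtn among them. Its direction here is thus no separate finding. Pdgfrb, also such a marker, was closer, with 539 against 846 CPM at P1 and 475.5 against 1032 CPM at P7. The cluster was left unnamed, since no marker list led it.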

How the data were processed

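Per the labels and the study's methods, the authors made 10x Genomics Chromium 3′ (V3) libraries and used bcl2fastq, Cell Ranger (3.1.0 in the file headers) and the rat genome rn6. Seurat 3.1.1 is named in the submitters' processing notes. The deposited matrices hold UMI counts per gene and barcode, not normalized. The annotation and the rule for calling cells are not given in the sources used here. The total was 228167106 UMIs, with a median depth of 6565 (P1), 6878 (P7) and 1614 (P14) in the kept cells. PCR duplicates were merged by UMI, and intervals cover counting error only.

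Cells were kept with 501 to 4999 genes, 500 or more UMIs and under 25% mitochondrial UMIs. Seurat 5.3.0 (R 4.3.3) was used for clustering, with 2000 variable genes less the 8 members, 10 principal components, resolution 0.8 and seed 0. A cluster took the name of the marker list with the highest mean log2 ratio to all other cells. That mean had to be 1 or more, with 3 or more markers at 10 CPM or above. Clusters stayed unnamed where a second list (not dividing) reached 1 and over 50% of the first, unless dividing led. They also did where the list did not lead among the top 10 genes, or where Scrublet marked over 50% of cells. The Slco1a4-led cluster stayed unnamed by its second list (endothelial 3.82, mural 2.55). Scrublet was run through scanpy 1.11.5. Marked cells were kept, and left out as an alternative. Shares used cells thinned to 1000 UMIs without replacement, and 965 kept cells below that depth were left out of them (37 at P1, 193 at P7 and 735 at P14). Ratios of summed counts were log2 of CPM with 10 added, for genes with 10 or more UMIs in both groups together and 10 CPM in either. They were tested on simulated data, where unchanged genes often passed 2-fold for P14 against P7 and did not for P7 against P1, so that 2-fold calls at P14 are weak evidence. Intervals are exact Poisson and Clopper-Pearson (scipy 1.17.1). The limit of a count of 0 is 3 counts.

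The genes named are the 8 members, the fixed lists, the 10 genes most like the mean of the members and the 5 most like Rgs5 and Acta2, and the 10 highest and 10 lowest genes of the Acta2 split, which had to go the same way at the 2 stages with 30 or more cells in both classes. Of the 10 lowest, 1 gene is not reported here. Members and lists were chosen with earlier results of these data known. Promoter coordinates are those of GRCr8, and no gene coordinates are given, since the matrices were made on rn6.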

Additional observations from a re-analysis of the deposited data

How the results depend on the processing

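Of the share of mural-like cells, the share of Rgs5 cells with Acta2 and the counts of genes past 2-fold, most moved by less than the counting interval or 1.5 times under the alternatives (82 values), and 15 moved further. The share of Rgs5 cells with Acta2 depended on the UMIs used. At P1 it was 15.4% with 2 UMIs, 37.5% without thinning and 33.9% at 3000 UMIs. At P7 it was 16.5% with 2 UMIs, 37.1% without thinning, 15.8% at 500 UMIs and 35.6% at 3000 UMIs. The number of genes past 2-fold, either way, moved with the CPM added. With 1 CPM added it was 1095 for P7 against P1, and 1006 (P1) and 767 (P7) for the Acta2 split. With 50 CPM added it was 51 for P7 against P1, 767 for P14 against P7, and 35 (P1) and 24 (P7) for the split. In the main setting, with 10 CPM added, these counts were 336, 3139, 373 and 205. By its formula a larger added CPM makes a log2 ratio smaller in size, most of all for genes with low CPM. Counting the Slco1a4-led cluster as mural-like, with its endothelial UMIs, brought the P14 share to 4.26%. It turned Acta2 (-0.25) and Tagln (-0.49) at P14 against P7. This alternative and thinning to 3000 UMIs were added after the data were seen. Without Scrublet-marked barcodes Rgs5 was 3200 CPM at P1 and 3873 CPM at P7. The other clusterings and the 10% mitochondrial limit turned no direction of a member past 2-fold at P7 or P14, while the 10% limit took Acta2 at P14 under 2-fold (0.88). No paired analysis was possible because each stage has 1 library. Depth limits P14 most, where 27 of 56 mural-like cells reached 1000 UMIs. For single members and their shares 102 values moved and 584 did not.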
